A study of Mus musculus with 6 samples.

Results

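The enzymes of the pentose phosphate pathway were followed in mouse bone-marrow-derived macrophages kept for 6 h with or without whole glucan particles. The members were the 6 genes G6pdx, Pgls, Pgd, Rpia, Tkt and Taldo1, named as the core enzymes of the pathway and not by any measured value, among 20283 genes with a named probe on the array. Each had 1 probe with 1 spot, found through the RefSeq accession that the scanner files give for the probe. Of the 6, 5 passed the filter on dim probes and were tested, and Rpia did not.

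The pentose phosphate pathway branches off glycolysis at glucose 6-phosphate. Its oxidative branch (G6pdx, Pgls, Pgd) turns glucose 6-phosphate into ribulose 5-phosphate and yields NADPH, the reducing agent that glutathione and thioredoxin reductases, lipid synthesis and the phagocyte NADPH oxidase draw on. Its non-oxidative branch (Rpia, Tkt, Taldo1) interconverts sugar phosphates, which supplies ribose 5-phosphate for nucleotides or returns carbon to glycolysis. In macrophages the pathway is known for feeding the oxidative burst and antioxidant defence.

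The cells came from C57BL/6 mice of 6 to 8 weeks, are labelled as polarized M2 macrophages in both groups, and spent the 6 h in complete DMEM alone (medium) or in complete DMEM with WGP, particles of yeast cell wall rich in beta-glucan. The agent used for polarization is not given in the sources used here. Of 11 marker genes of M2 macrophages, 4 (Mrc1, Clec10a, Mgl2 and Tgm2) were well above background on every array and 5 on none (Arg1, Retnla, Ccl17, Ccl22 and Irf4). RNA was measured on 1-colour Agilent arrays, and each group rests on n = 2 arrays, replicates 1 and 2. The files of replicate 3 were left out, because at each of the 44397 spots the raw signal and background were identical to those in replicate 1. Whether the replicates are separate cultures or mice is not in the labels, and the p-values reflect array-to-array spread alone, which may be technical. Each replicate number was also 1 slide, with the medium array at position 1 and the WGP array at position 3, so treatment and position cannot be told apart. Arrays were scaled by their 75th percentile of signal, 86.1 and 68.7 for medium replicates 1 and 2, and 59.2 and 55.9 for WGP. Of 11 macrophage markers, 9 were well above background on every array, with a summed level of 1443 to 1490 times the array's 75th percentile in medium and 1673 to 1931 times with WGP. The sum is dominated by the brightest marker, Csf1r, at a mean log2 level of 10.03 in medium and 10.50 with WGP. Csf1r was not called (adjusted p = 0.0553 in limma). The next brightest marker, Itgam, was at 7.74 and 7.37. In limma 2 of the 10 tested macrophage markers rose (Cd14 and Spi1) and 5 fell (Mertk, 3.69-fold lower, and Cd163 among them). Of 6 tested M2 markers Tgm2 (13.2-fold) and Socs2 rose and Clec10a (16.3-fold lower) and Mrc1 fell. Cd163 was not well above background on either WGP array, nor Socs2 on either medium array. Each passed the filter through its brighter group alone, with a bound of at least 2.43-fold lower and 1.90-fold higher. With a background correction that adds an offset to every signal (normexp), Cd163 changed by -0.17, and by -0.32 with quantile normalization added. Of 26 markers of other cell types, 8 were well above background on every array (Cd3e, Elane, S100a8, S100a9, Hba-a1, Col1a1, Col1a2 and Zbtb46). Of 11 tested 0 rose and 4 fell with WGP in limma (Cd79b, Cd79a, Col3a1 and Hba-a1), with 0 higher at an unadjusted p under 0.05. Cd79b and Col3a1 were not well above background on either WGP array (bounds of at least 5.02-fold and 1.61-fold lower), and Cd79a on 1 of 2. Under normexp with 75th percentile scaling Cd79b changed by -0.32, Cd79a by -0.03, Col3a1 by 0.094 and Hba-a1 by -0.013. The share called was 70% for macrophage, 66.7% for M2 and 36.4% for other markers, against 40.7% of all tested genes. Cd3d, Cd3g, Ms4a1, Flt3, Kit and Cpa3 were among those detected on 0 of 4 arrays. The part of other cells in the results was not tested, and in RNA from whole cultures fewer cells of a type and less RNA per cell cannot be told apart.

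With WGP, 4 of the 5 tested enzymes rose and 1 fell, against a background of 40.7% of all 10948 tested genes that changed (23.5% higher, 17.2% lower). With the slide as a block all 5 were called as well, against 37.3% of all tested genes. Taldo1 and Pgd rose 3.89-fold and 3.06-fold, G6pdx 1.63-fold and Tkt 1.39-fold, while Pgls was 1.68-fold lower. Taldo1 and Pgd were called in the reported fit and in all 17 other processing settings. The calls of G6pdx, Pgls and Tkt were lost in 5, 5 and 7 of the 17, and only 2 enzymes were called when medium replicate 2, WGP replicate 1 or WGP replicate 2 was left out. Among the 17, the setting with all 6 files as samples counts the replicate 3 files, which repeat the raw signals of replicate 1, as separate arrays. It gave the lowest adjusted p of each tested enzyme, so the low end of each range below rests on repeated data. Calls are from limma at a Benjamini-Hochberg adjusted p under 0.05 over all tested genes. Levels below are log2 of the signal minus the array's 75th percentile, and changes are WGP minus medium on that scale. In all 5 tested enzymes the arrays of the groups did not overlap, as was the case for 75% of all tested genes.

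**Figure D1:**
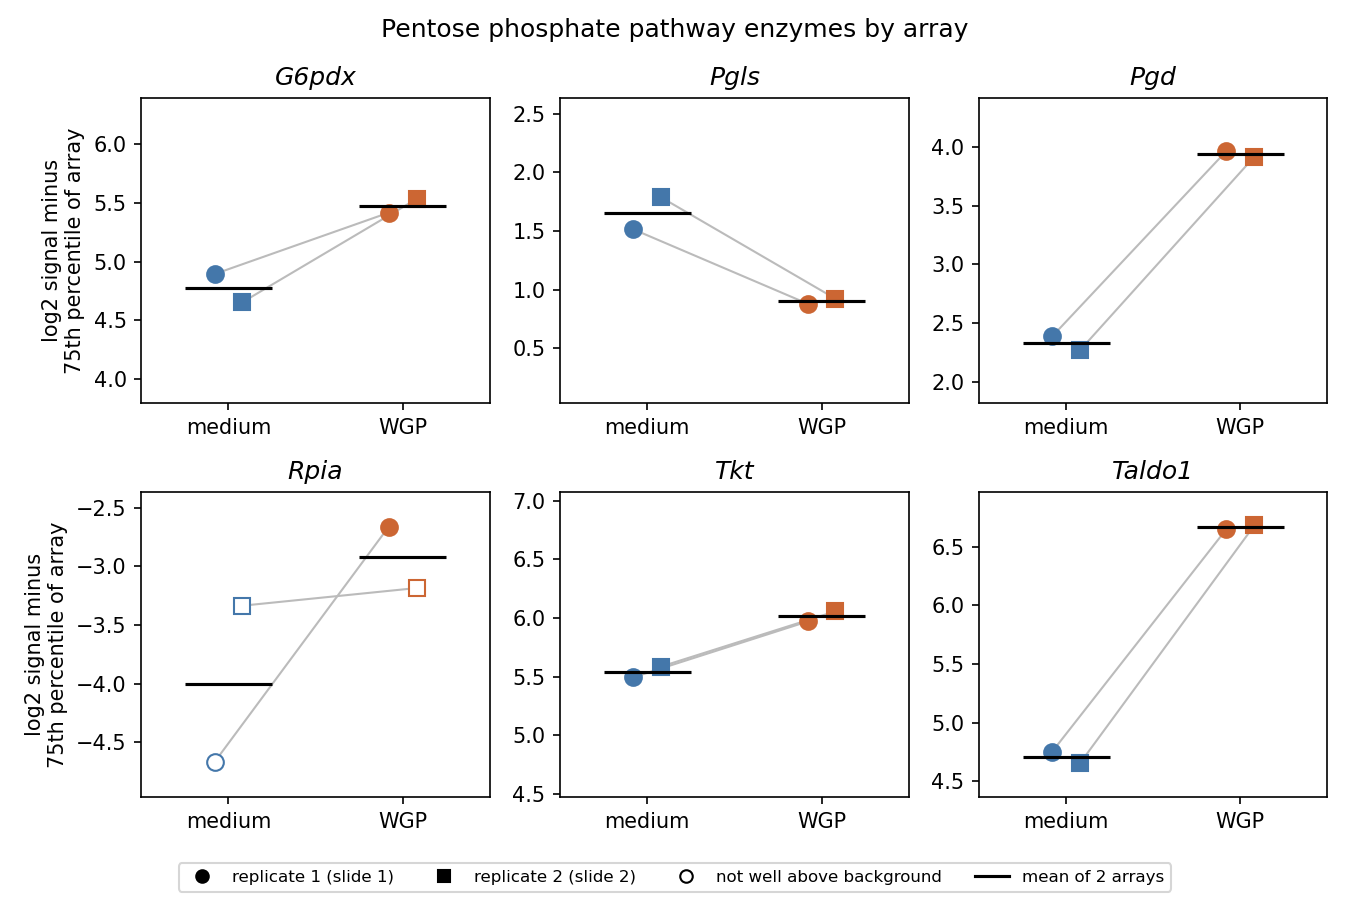
Level of each enzyme on each array (log2 signal minus the array's 75th percentile, every axis with its own range) in medium (blue) and with WGP (orange), with grey lines joining the arrays of a slide and black bars for the mean of 2 arrays. Taldo1 and Pgd show the widest gap between groups, Pgls lies lower with WGP, and for Rpia 3 of 4 arrays are open symbols, not well above background.

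The windows before the transcription start sites are shown for the enzymes with the widest gaps (Taldo1, Pgd), for the one that fell (Pgls) and for G6pdx, the one with a motif match. They are the 250 bases before the start site, 5′ to 3′ on the gene's strand, from RefSeq in build GRCm38.p6, at chr7:141391910-141392159 (Taldo1, plus strand), chr4:149166706-149166955 (Pgd, minus strand, the outer of its listed starts), chr8:71591934-71592183 (Pgls, plus strand) and chrX:74428881-74429130 (G6pdx, minus strand). Capitals mark a match to a searched motif.
Taldo1: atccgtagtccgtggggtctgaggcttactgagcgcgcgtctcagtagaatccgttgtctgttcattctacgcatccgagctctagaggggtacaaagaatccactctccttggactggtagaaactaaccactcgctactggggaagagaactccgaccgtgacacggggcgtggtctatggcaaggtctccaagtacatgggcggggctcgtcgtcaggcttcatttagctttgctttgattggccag
Pgd: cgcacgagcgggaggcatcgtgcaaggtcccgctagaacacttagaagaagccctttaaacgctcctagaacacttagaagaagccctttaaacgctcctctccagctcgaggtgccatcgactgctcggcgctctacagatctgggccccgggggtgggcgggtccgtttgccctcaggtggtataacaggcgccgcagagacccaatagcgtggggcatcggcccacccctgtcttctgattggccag
Pgls: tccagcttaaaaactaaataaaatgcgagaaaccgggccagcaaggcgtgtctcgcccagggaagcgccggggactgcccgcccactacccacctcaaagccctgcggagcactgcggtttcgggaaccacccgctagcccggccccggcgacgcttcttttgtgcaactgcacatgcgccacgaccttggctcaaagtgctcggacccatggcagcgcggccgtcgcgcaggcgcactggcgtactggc
G6pdx: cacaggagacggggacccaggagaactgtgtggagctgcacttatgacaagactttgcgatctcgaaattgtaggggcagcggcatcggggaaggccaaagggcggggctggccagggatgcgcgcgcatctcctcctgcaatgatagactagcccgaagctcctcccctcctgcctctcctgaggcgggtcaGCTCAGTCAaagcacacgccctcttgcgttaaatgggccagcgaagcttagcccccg
All 6 enzymes had such a window, 7 windows in all, and each was searched on both strands for the core of the antioxidant response element bound by NRF2 (TGACNNNGC), the AP-1 site (TGANTCA) and the E-box (CACGTG). The antioxidant response element and the AP-1 site can overlap. The only match was in G6pdx, where the antioxidant response element core lies on the opposite strand, 57 to 49 bases before the start. Of all 32851 windows of this length, 10.2% held that core, 6.75% the AP-1 site and 6.02% the E-box. A match is a description of the letters, and the lack of one says only that they are not in this window.

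G6pdx, Pgls and Pgd carry out the oxidative branch in that order. G6pdx encodes glucose-6-phosphate dehydrogenase, the rate-limiting enzyme at the pathway's entry. Its level was 4.89 and 4.65 in medium replicates 1 and 2, and 5.42 and 5.53 with WGP. Both WGP arrays were higher than both medium arrays, and the medium arrays lay further apart (SD 0.17) than the WGP arrays (SD 0.082). G6pdx rose by 0.70 ± 0.13 (SE; 95% interval 0.35 to 1.05; adjusted p = 0.0189 in limma). The rise was 0.52 on slide 1 and 0.88 on slide 2. Before scaling, its signal was 2560 and 1730 on the medium arrays and 2530 and 2590 on the WGP arrays. On slide 1 the unscaled signals were thus nearly equal (ratio 0.988), and the rise there comes with the scaling to each array's 75th percentile. With no scaling the change was 0.28 and was not called (adjusted p = 0.444). Leaving out medium replicate 2 (adjusted p = 0.0821), WGP replicate 1 (0.0719) or WGP replicate 2 (0.11) also ended the call, and the adjusted p spanned 0.000486 to 0.444 over the alternatives.

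Pgls encodes 6-phosphogluconolactonase, which opens the lactone that G6pdx makes, and it was the only tested enzyme of the 6 that fell. Its level was 1.51 and 1.79 on the medium arrays and 0.88 and 0.92 on the WGP arrays. Both WGP arrays were lower than both medium arrays, and the unscaled signal fell on both slides as well, from 246 to 109 and from 237 to 106. Pgls fell by 0.75 ± 0.13 (SE; 95% interval -1.11 to -0.39; adjusted p = 0.0168 in limma). With no scaling the change was -1.17. Its call was lost with median scaling (adjusted p = 0.0521) and without WGP replicate 1 (0.0837), WGP replicate 2 (0.0899) or medium replicate 2 (0.0667), and the adjusted p spanned 0.000336 to 0.0899 over the alternatives.

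Pgd encodes 6-phosphogluconate dehydrogenase, which makes the second NADPH of the branch and releases ribulose 5-phosphate. Its level was 2.39 and 2.27 on the medium arrays and 3.97 and 3.92 on the WGP arrays. The groups lay far apart relative to their spread (SD 0.083 in medium and 0.035 with WGP). Pgd rose by 1.61 ± 0.10 (SE; 95% interval 1.34 to 1.89; adjusted p = 0.00215 in limma), by 1.58 on slide 1 and 1.65 on slide 2. Its unscaled signal rose from 450 to 925 and from 331 to 844. Over the other settings its change ranged from 1.19 to 1.78 and its adjusted p from 3.38e-06 to 0.0299. Neighbouring steps of the oxidative branch thus differed: the change of Pgd exceeded that of Pgls by 2.21 and 2.51 and that of G6pdx by 1.06 and 0.77 on slides 1 and 2. Such a difference between changes on the same arrays is not altered by a scaling that multiplies each array by a constant.

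Rpia, Tkt and Taldo1 belong to the non-oxidative branch. Rpia encodes ribose-5-phosphate isomerase, which makes ribose 5-phosphate from ribulose 5-phosphate. Its signal was 3.39 and 6.81 on the medium arrays and 9.36 and 6.15 on the WGP arrays, beside local backgrounds of 20 to 32, and only WGP replicate 1 was well above background. The medium arrays differed by more than the means of the groups did (levels of -4.67 and -3.33 against -2.66 and -3.18), so no fold is given. When dim probes were kept in the fit, Rpia was not called (adjusted p = 0.354 in limma). Rpe, the epimerase that works beside Rpia, was above background on 0 of 4 arrays.

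Tkt encodes transketolase, which moves units of a pair of carbons between sugar phosphates. Its level was 5.49 and 5.59 on the medium arrays and 5.97 and 6.06 on the WGP arrays. The difference was the same on both slides (0.48 and 0.47), and the groups did not overlap. Tkt rose by 0.47 ± 0.10 (SE; 95% interval 0.20 to 0.75; adjusted p = 0.0272 in limma). Background correction by normexp, an alternative that adds an offset to every signal, gave a change of 0.29. The unscaled signal was 3880 and 3300 on the medium arrays and 3710 and 3720 on the WGP arrays, so that it was lower with WGP on slide 1 and higher on slide 2 (ratios 0.956 and 1.13). With no scaling the change was 0.054 (adjusted p = 0.892). The call was also lost with quantile normalization (0.0837) and without medium replicate 1 (0.0835), medium replicate 2 (0.0876), WGP replicate 1 (0.106) or WGP replicate 2 (0.155), and the adjusted p spanned 0.000336 to 0.892 over the alternatives.

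Taldo1 encodes transaldolase, the partner of transketolase, which moves units of 3 carbons. Its level was 4.75 and 4.65 on the medium arrays and 6.65 and 6.68 on the WGP arrays. The arrays of a group lay close together (SD 0.069 and 0.022), and the gap between the groups was 1.90 on slide 1 and 2.03 on slide 2. Taldo1 rose by 1.96 ± 0.098 (SE; 95% interval 1.69 to 2.23; adjusted p = 0.00156 in limma). The unscaled signal rose from 2320 to 5940 and from 1730 to 5730. Over the other settings its change ranged from 1.54 to 2.12 and its adjusted p from 1.75e-06 to 0.0258. The change of Taldo1 exceeded that of its partner Tkt by 1.42 and 1.55 on slides 1 and 2, and that of Pgd by 0.32 and 0.38. Of the 10 pairs of tested enzymes, G6pdx and Tkt had the smallest mean difference (0.23), with 0.048 on slide 1 and 0.41 on slide 2, where Taldo1 and Pgd were closer. These differences were not tested.

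**Figure D2:**
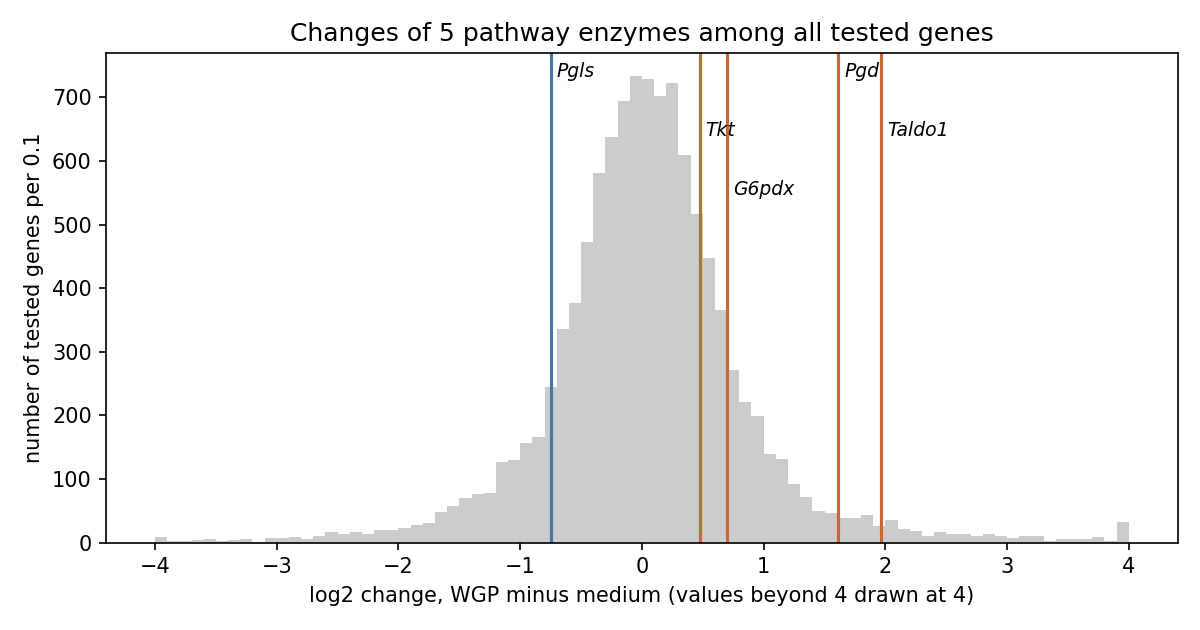
Number of tested genes by log2 change with WGP (grey, 10948 genes), with the 5 tested enzymes as lines. Taldo1 and Pgd lie in the upper tail, above 97.6% and 96.4% of tested genes, while Tkt, at 76.7%, and G6pdx, at 85.3%, lie on the shoulder of the distribution and Pgls on the lower one.

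Among all tested genes the change of Taldo1 was rank 268 from the highest and that of Pgd rank 398. G6pdx stood above 85.3% of tested genes, Tkt above 76.7% and Pgls above 11.7%, where the median change of all genes was 0.034. Relative to that median the changes were 1.93 for Taldo1, 1.58 for Pgd, 0.67 for G6pdx, 0.44 for Tkt and -0.78 for Pgls. Median scaling moved the median of all genes to 0.20 and the lack of scaling to -0.39, and the higher calls made up 73.0% and 18.9% of all calls under these settings, against 57.8% in the reported fit. The scanner software's own error estimate was 10% of the signal, or 10.1% at most, for the 5 tested enzymes on every array, and 18.4% to 50.2% for Rpia.

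The tested genes whose centred levels over the 4 arrays came closest to each enzyme were found by root mean square distance on the log2 scale. For Taldo1 they were Tubb4b (0.021) and Adssl1 (0.026), for Pgd Sc5d (0.015) and Sipa1l2 (0.023), and for G6pdx Tmem208 (0.0148) and Rab1a (0.0149). For Tkt they were Vcpkmt (0.011) and Nek7 (0.012), and for Pgls Map11 (0.0044) and Rell2 (0.018). With 4 arrays in 2 groups, such likeness mostly restates an equal change between groups.

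Of 16 genes beside the core pathway, 9 were tested, and 4 rose and 0 fell in limma (0 were lower at an unadjusted p under 0.05), with a median change of 0.52. The share called, 44.4%, was near the 40.7% of all tested genes. H6pd, the enzyme of the endoplasmic reticulum that joins the first steps of the oxidative branch in one protein, rose 2.26-fold (1.18 ± 0.12, SE, adjusted p = 0.00528 in limma). Its level was 1.17 and 1.26 on the medium arrays and 2.28 and 2.50 on the WGP arrays, with no overlap. Tigar, a phosphatase that steers glucose 6-phosphate towards the pathway, rose 2.15-fold (1.10 ± 0.094, SE, adjusted p = 0.00357), with a change of 0.43 under normexp. Rbks and Prps1l3 made up the rest, and both calls were lost with no scaling (adjusted p = 0.288 and 0.789) and when medium replicate 2 (0.0606 and 0.0803), WGP replicate 1 (0.0733 and 0.103) or WGP replicate 2 (0.0899 and 0.103) was left out. That of Prps1l3 was also lost without medium replicate 1 (0.0551). Gpi1, the glycolytic isomerase that competes for glucose 6-phosphate, was at 6.61 in medium and 6.57 with WGP (adjusted p = 0.751). The copies and relatives of the enzymes, G6pd2, Tktl1 and Tktl2, were above background on 0 of 4 arrays, and so was Shpk, the kinase of sedoheptulose. Only 2 were called when medium replicate 2 or either WGP array was left out, and 2 with no scaling. The calls of H6pd and Tigar were kept in all 17 other settings.

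The genes listed as other NADPH sources, not all of which make NADPH themselves (Nadk makes NADP), went both ways. Of 9 tested among 13, 4 rose and 2 fell, with a median of 0.13. The share called was 66.7%, against 40.7% of all tested genes. Me1, the cytosolic malic enzyme, rose from -2.59 to 1.08, or 12.8-fold (3.68 ± 0.12, SE, adjusted p = 0.00122 in limma), with 1 of 2 medium arrays well above background. Since the other medium array was not well above background, the size of this fold is uncertain, and the change was 1.48 under normexp. Mthfd1l, a mitochondrial one-carbon enzyme, rose 2.01-fold (adjusted p = 0.011), a call lost without medium replicate 1 (0.0507), medium replicate 2 (0.0792) or WGP replicate 2 (0.0544). It was also lost with no scaling (0.0898) and under normexp, where the change was 0.24 (0.0635). The mitochondrial isocitrate dehydrogenase Idh2 was 1.68-fold lower (adjusted p = 0.0121) and the folate dehydrogenase Aldh1l1 1.42-fold lower (adjusted p = 0.044). The call of Idh2 was lost without WGP replicate 1 (0.067), WGP replicate 2 (0.0544) or medium replicate 2 (0.0765). That of Aldh1l1 was lost without any one of the 4 arrays (0.0847 to 0.181) and with the slide as a block (0.0651). Nadk, the kinase that makes NADP from NAD, rose 1.72-fold (adjusted p = 0.00774), a call lost without medium replicate 2 (0.055), WGP replicate 2 (0.0666) or scaling (0.296). The count of 6 was 3 without medium replicate 1, 1 without medium replicate 2, 2 without WGP replicate 2 and 3 with no scaling.

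Of enzymes that use NADPH, 18 of 19 were tested, and 10 rose and 2 fell, with a median of 1.14. The share called was 66.7%, against 40.7% of all tested genes (23.5% higher, 17.2% lower). Txnrd1, the cytosolic thioredoxin reductase, rose 12.4-fold (3.64 ± 0.16, SE, adjusted p = 0.00127 in limma), and the squalene epoxidase Sqle of sterol synthesis 9.20-fold (3.20 ± 0.098, SE, adjusted p = 0.00122). Gsr, which reduces glutathione, rose 4.11-fold (2.04, and 1.31 under normexp with quantile normalization). Among subunits of the phagocyte NADPH oxidase, Ncf4, Cybb and Cyba rose (3.45-fold, 2.14-fold and 1.76-fold) and Ncf1 was 1.46-fold lower (adjusted p = 0.0368). With no scaling the calls of Cybb (0.0523) and Cyba (0.25) were lost, and that of Cyba also without WGP replicate 2 (0.0634). The mitochondrial thioredoxin reductase Txnrd2 was 1.68-fold lower (adjusted p = 0.0159). The calls of Ncf1 and Txnrd2 were lost without any one of the 4 arrays (0.0806 to 0.161 and 0.0544 to 0.0958). Nqo1, a quinone reductase, was not well above background on either medium array, so that only a bound can be given. It sets the mean of the WGP arrays against a floor per medium array, which is the dimmest detected probe there or this probe itself, whichever is brighter. Nqo1 had a bound of at least 2.42-fold and was not called (adjusted p = 0.0559), but was called with the slide as a block (0.0128), and its adjusted p spanned 0.000598 to 0.176 over the alternatives.

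Ribose 5-phosphate enters nucleotides through enzymes of purine and pyrimidine synthesis and salvage. Of 17 tested among 20, 8 rose and 2 fell, with a median of 0.47. The share called was 58.8%, against 40.7% of all tested genes. Adssl1, an adenylosuccinate synthase, rose 3.76-fold (1.91 ± 0.099, SE, adjusted p = 0.00161 in limma), and Nampt, which starts the salvage of nicotinamide to NAD, 3.00-fold (adjusted p = 0.00315). Naprt, which takes nicotinic acid towards NAD, was 2.05-fold lower (adjusted p = 0.00503) and the purine salvage enzyme Hprt 1.65-fold lower (adjusted p = 0.0122). The call of Hprt was lost without WGP replicate 1 (0.0572), WGP replicate 2 (0.0854) or medium replicate 2 (0.0555). The count of 10 was 3 without any one of these arrays and 5 with no scaling.

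Of 6 genes of NRF2 (Nfe2l2) and its partners, a factor known to drive pathway enzymes, 4 rose and 1 fell, with a median of 0.95. The share called was 83.3%, against 40.7% of all tested genes. Nfe2l2 rose 2.24-fold (1.16 ± 0.095, SE, adjusted p = 0.00332 in limma). The small Maf factor Maff, not well above background in medium, was at least 11.98-fold higher (adjusted p = 0.00124). It passed the filter through the WGP arrays alone, and its fitted change was 4.27, or 1.20 under normexp. Bach1, a repressor at the same DNA element, was 1.41-fold lower (adjusted p = 0.0414), which no longer passed when any one of the 4 arrays was left out (0.0648 to 0.178). Keap1, which marks NRF2 for degradation, was at 2.23 in medium and 2.13 with WGP and was not called (adjusted p = 0.453). Under normexp with 75th percentile scaling Keap1 changed by -0.27 and was called lower (adjusted p = 0.045 in limma). The group then had 3 higher and 2 lower calls, and Mafk was not called (0.058). Leaving out medium replicate 2 or either WGP array gave 3 calls in place of 5.

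**Figure D3:**
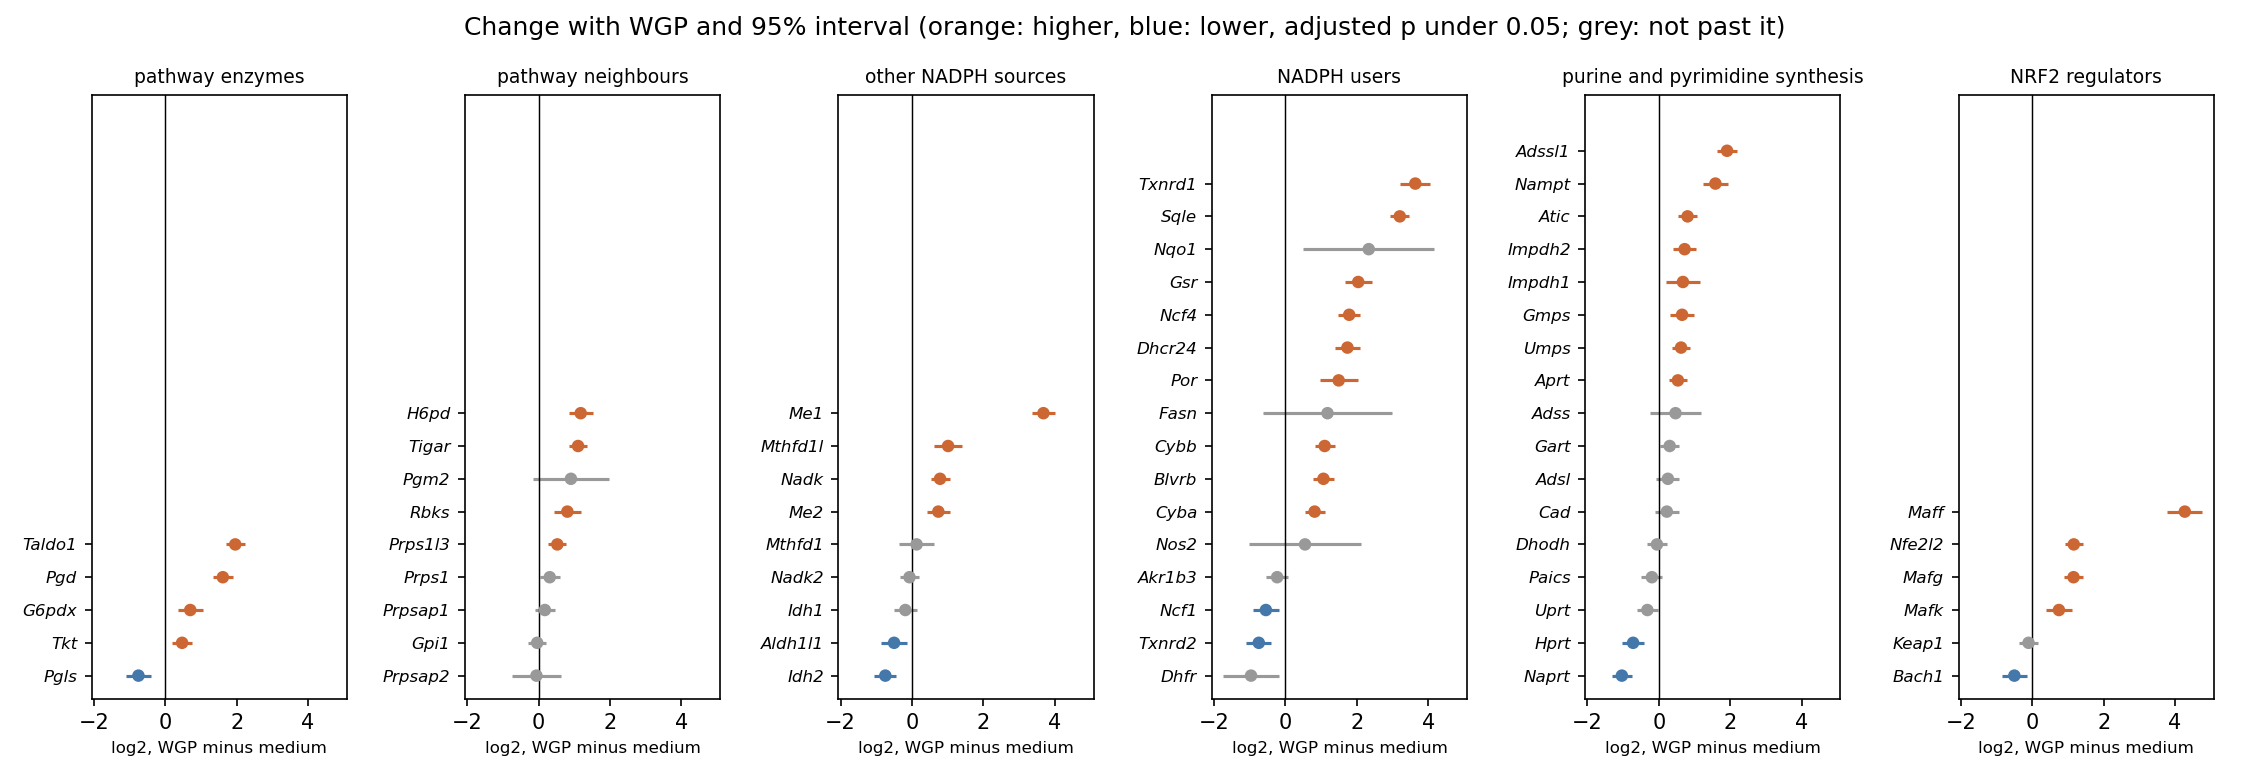
Log2 change with WGP (point) and its 95% interval from limma (line) for the 5 tested enzymes and for the genes of the related lists that are reported, coloured by adjusted p and direction. Me1, Txnrd1, Sqle and Maff show wider changes than any of the core enzymes (3.68, 3.64, 3.20 and 4.27 against 1.96 for Taldo1). So do Nqo1 (2.33, not called) and Gsr (2.04), whose intervals include 1.96. The values of Maff and Nqo1 are fitted ones, their medium arrays being not well above background.

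**Figure D4:**
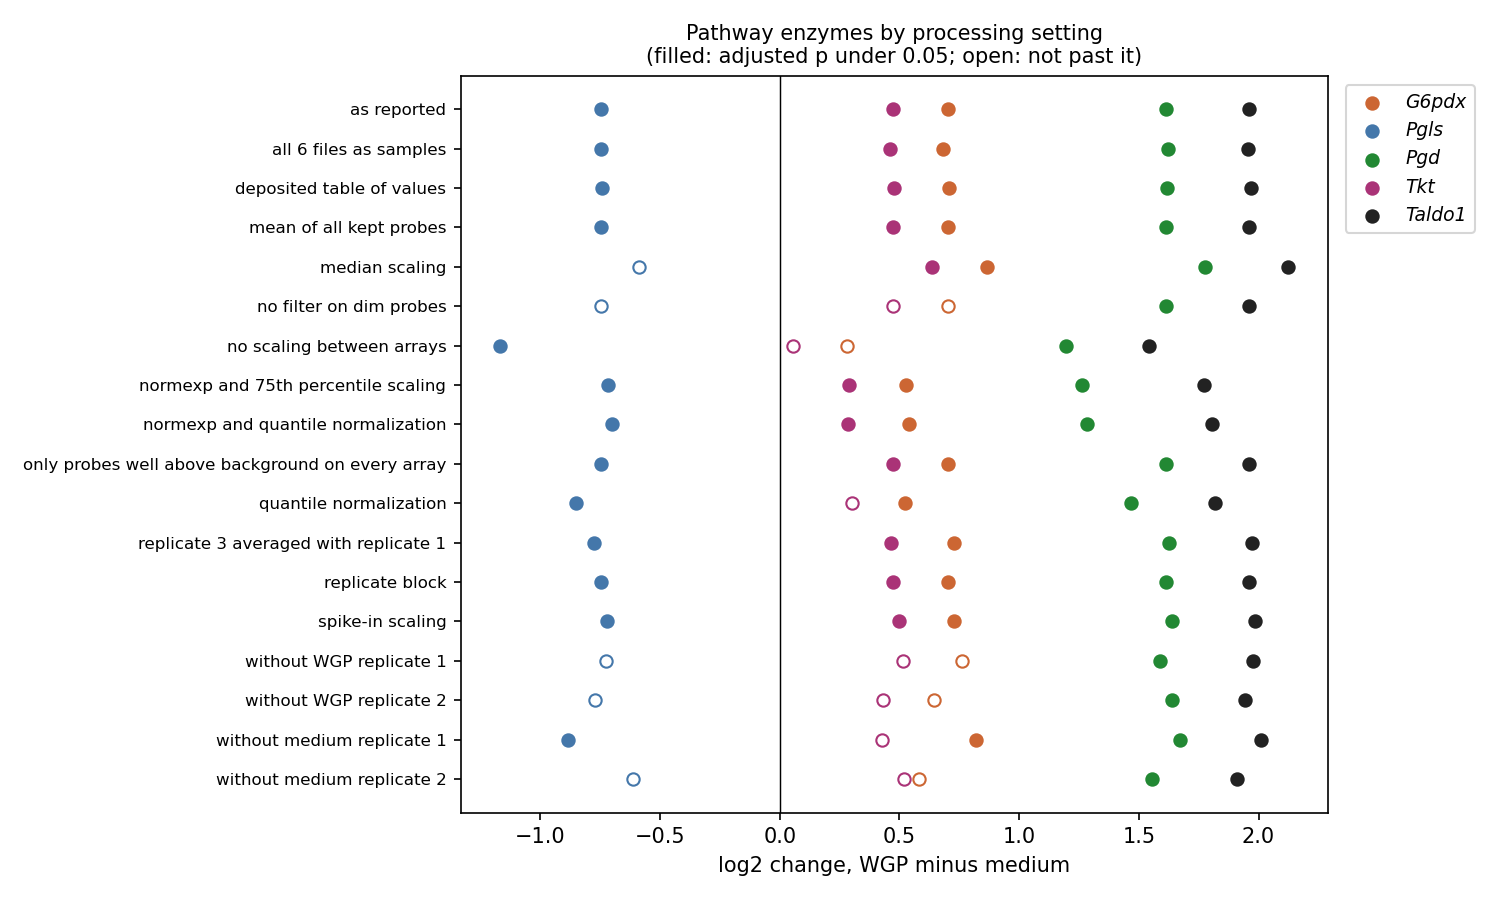
Log2 change of each tested enzyme (horizontal axis) under the reported processing and 17 alternatives (rows), filled where the adjusted p was under 0.05. Taldo1 and Pgd are filled in every row, and with no scaling between arrays Tkt and G6pdx move to 0.054 and 0.28.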

How the data were processed

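The submitters' processing notes name Agilent Feature Extraction 10.7.3. Per the file headers, the Cy3 intensities of the spots were background-subtracted and spatially detrended by the authors' scanner software, with no scaling between arrays, and the array design is on mm9. From each array 1377 control spots and 118 to 183 outlier spots were dropped; 0 were saturated. Signals were divided by the array's 75th percentile, put on the log2 scale and averaged per probe. Of 39429 probes, 26761 were named by accession in the RefSeq table of GRCm38.p6. A gene was tested where 1 or both groups had a probe well above background on each of their arrays, through its brightest such probe (10948 genes). The test was limma 3.58.1, run in R 4.3.3 (2 residual and 2.22 prior degrees of freedom). The fit was tested on simulated data. The log2 table deposited by the authors, with an unstated baseline per probe (correlation with the scanner values after centring 0.9999), was an alternative only. The raw signals of replicate 3 were those of replicate 1, and its processed signals were within 0.695% of the mean of replicates 1 and 2 in medium and within 0.488% of 1.3 times replicate 1 with WGP. Arrays of the same replicate number, a slide each, had deviations from the group means that correlated at 0.14. Named genes were all 6 enzymes, the 2 largest calls in each direction per list, those genes given as bounds, relatives of the enzymes, and the 2 closest patterns per enzyme; Rpe, Shpk, Gpi1, Nadk, Gsr, the other oxidase subunits, Keap1, Rbks, Prps1l3 and the further markers of cell types were named after their values were seen. Some genes of the lists are counted but not reported here by name. Members, lists and tests were chosen with earlier results of these data known. Precision is limited by the number of arrays.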

Additional observations from a re-analysis of the deposited data

How the results depend on the processing

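Of 17 other settings, Taldo1 and Pgd kept their direction and call in all. All 5 tested enzymes kept their direction in all 17. With no filter on dim probes (20274 genes tested) the calls of G6pdx (0.70, adjusted p = 0.0935), Pgls (-0.75, 0.085) and Tkt (0.47, 0.138) were lost in limma, 1541 genes changed, and the counts of changed genes were 2 for the enzymes, 2 for the genes beside the pathway, 2 for other NADPH sources, 3 for nucleotide synthesis and 3 for the NRF2 group. With no scaling between arrays, added after seeing the data, G6pdx was at 0.28 and Tkt at 0.054, and the counts were 3 enzymes, 2 genes beside the pathway, 3 NADPH sources and 5 nucleotide genes. Scaling to 7 spiked-in controls, also added, left all 5 calls and moved every change by 0.025. Median scaling ended the call of Pgls (-0.59), and quantile normalization that of Tkt (0.30). With all 6 files as samples, which counts repeats of replicate 1 as separate arrays, 7438 genes changed, and 7 genes beside the pathway. Leaving out 1 array at a time, where a group's single array is taken to have the spread of the other group, gave 1633 to 3329 changed genes and 2 to 4 changed enzymes, where G6pdx ranged from 0.58 to 0.82, Pgls from -0.88 to -0.61 and Tkt from 0.43 to 0.52. The counts then were 2 to 4 beside the pathway, 1 to 5 for NADPH sources, 3 to 8 for nucleotide synthesis and 3 to 4 for the NRF2 group. With the replicate block (slide), 4081 genes (37.3%) changed and all 5 enzymes kept their calls (adjusted p of 0.00612 for Taldo1 to 0.0435 for Tkt); beside Aldh1l1 and Nqo1 it changed no call given above. Rpia entered the fit only with no filter (adjusted p = 0.354) or without WGP replicate 2 (0.229). The cause of these differences was not tested.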
